A study of Drosophila melanogaster with 4 samples.

Results

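Non-telomeric LINE retrotransposons were followed through the small RNAs bound to Piwi in ovarian somatic cells (OSC), a cultured line of Drosophila melanogaster with no germ cells. The LINE rows were found by name in a table of 133 transposon rows and 13931 gene rows: 32 rows matched a fixed list of LINE family names, and HETA and TART, which maintain telomeres, were left out. The name list misses DMCR1A, a LINE of the CR1 clade, which is given separately.

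LINEs move through an RNA copy. Their transcript encodes a reverse transcriptase that copies the RNA into DNA directly at the place of insertion, so they lack the long terminal repeats of retroviral-type elements. Piwi-interacting RNAs (piRNAs) guide the nuclear protein Piwi to transposon transcripts by base pairing. In ovarian somatic cells piRNA precursors are gathered in Yb bodies, cytoplasmic granules organised by the Tudor-domain protein Yb. The piRNA supply of these somatic cells is known above all for elements of the gypsy group, whereas many LINEs, the I element and Doc among them, are known from their activity in the germline.

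There were 4 libraries. In 2 of them the plasmid encoded a Yb protein whose Hel-C domain was deleted (Yb ΔHel-C), and in 2 it carried wild-type Yb (Yb WT). Both groups also received an siRNA against Yb (siYb), grew at 26 degrees, and gave RNA of 23 to 30 nucleotides from a purification with an anti-Flag antibody. The comparison asks what the loss of Hel-C from Yb does to the small RNAs carried by Piwi.

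The deposited table gives 1 column per group. The spread between replicates is therefore unknown, and every difference reported here is without a replicate check. Its values are in RPM (reads per 1000000 reads) and step in whole reads, which puts the totals at 2803305 reads for Yb ΔHel-C and 2955141 reads for Yb WT. Intervals are exact 95% intervals of the ratio of RPM. They cover counting error only and treat each read as an independent draw. Whether that holds was not tested. Without molecular identifiers in the labels, repeated reads of the same molecule cannot be set apart, and the intervals may be too narrow. A row is called 2-fold lower or higher when the fold on RPM + 0.5 is at least 2. Only rows whose 2 columns averaged 1 RPM or more were considered. Lengths of the elements were not used, so levels of different rows are reads per row and not per length.

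The columns as a whole differed in what they hold. Gene rows held 78.9% of all reads in Yb ΔHel-C and 64.2% in Yb WT, and transposon rows held 1.81% in Yb ΔHel-C and 4.99% in Yb WT. The Yb gene fs(1)Yb stood at 645 RPM in Yb ΔHel-C and 406 RPM in Yb WT, but reads of the plasmid and of the endogenous gene cannot be told apart there. The marker levels that follow are Piwi-bound small RNA reads on each gene. They are not its expression and do not measure cell types. Markers of follicle cells, the somatic cells of the ovary, all had reads (7 of 7), with a summed level of 9194 RPM in Yb ΔHel-C and 9579 RPM in Yb WT. Of these, 5 were higher in Yb ΔHel-C, while tj, which holds the most reads, was lower (4481 RPM in Yb ΔHel-C and 6972 RPM in Yb WT), as was br. Genes in general were higher too. Of the 7577 gene rows averaging at least 1 RPM, 6139 had a log2 fold above 0, with a median of 0.89. The summed level of 8 germline markers was 37.5 RPM in Yb ΔHel-C and 84.9 RPM in Yb WT. By RPM, 4 of the 8 were higher in Yb ΔHel-C and 4 were lower. The 3 with the most reads were lower, orb with 34 reads in Yb ΔHel-C and 127 in Yb WT, grk with 41 in Yb ΔHel-C and 79 in Yb WT, and aub with 14 in Yb ΔHel-C and 32 in Yb WT. The defining germline gene vas had 2 reads in Yb ΔHel-C and 0 in Yb WT, and osk had 1 read in each. Reads on nos numbered 4 in Yb ΔHel-C and 2 in Yb WT. In the same order AGO3 had 5 and 4, and bam had 4 and 6. Whether the germline reads play a part in the LINE values was not tested. In a bulk sample fewer cells with a small RNA and less of that RNA per cell cannot be told apart.

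Piwi-bound reads on LINEs were lower in Yb ΔHel-C. The 32 LINE rows together held 649 RPM in Yb ΔHel-C and 2491 RPM in Yb WT, a ratio of 0.260 (0.247 to 0.274), or 3.84-fold lower. Of the 32 rows, 28 reached a mean of 1 RPM. Of these, 18 were called 2-fold lower, 1 higher and 9 neither, where 63.3% of all 120 transposon rows considered were called lower and 2.5% higher. The share of LINE rows called lower was thus close to that of transposon rows in general. The median log2 fold of the 28 LINE rows was -1.35, with quartiles of -2.08 and -0.82, beside -1.22 over the 120 transposon rows, and 27 of the 28 values lay below 0.

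Most of these differences were larger than counting error. The whole interval lay below a ratio of 1 for 26 of the 28 rows, where 82.5% of all transposon rows did so. It lay wholly past 2-fold lower for 11 rows (34.2% of all transposon rows), namely HELENA_RT, IVK, Jockey2, FW2, Baggins1, DMRT1A, DMRT1B, DMRT1C, R1-2, G and G5. An exact test on the recovered reads, which compares these columns and not the conditions, called 26 LINE rows lower and 1 higher with no minimum fold (80.8% and 2.5% of all transposon rows).

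**Figure D1:**
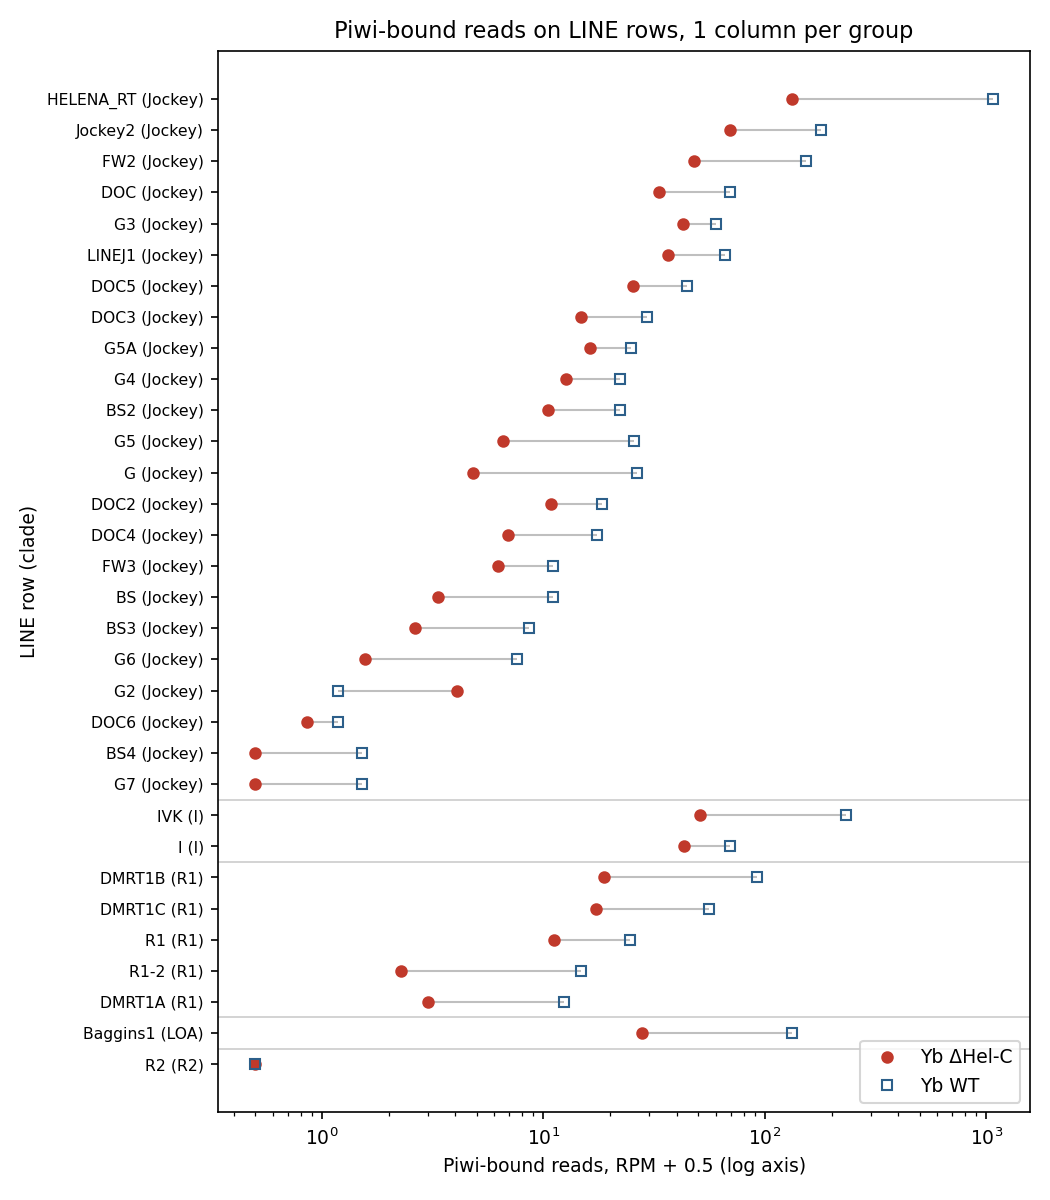
Piwi-bound reads of all 32 LINE rows, as RPM + 0.5 on a log axis, with filled circles for Yb ΔHel-C and open squares for Yb WT, grouped by clade. The circle lies left of the square in nearly all rows, HELENA_RT has the widest gap (131 RPM in Yb ΔHel-C and 1069 RPM in Yb WT), G2 is turned round, and R2 is listed at 0 in both columns.

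HELENA_RT, a row of the Helena family in the Jockey clade, carried much of the LINE signal. It had 131 RPM (368 reads) in Yb ΔHel-C and 1069 RPM (3158 reads) in Yb WT. The level in Yb ΔHel-C was 8.14-fold lower (7.31 to 9.09). This was the lowest of the 87 ratios among transposon rows averaging at least 10 RPM, and 5 of the 10 lowest were LINE rows, which make up 21 (24.1%) of the 87. HELENA_RT made up 20.2% of the LINE reads in Yb ΔHel-C (18.4 to 22.2) and 42.9% in Yb WT (41.8 to 44.0). Of the summed difference of -1843 RPM over the LINE rows, HELENA_RT gave -937 RPM, or 50.9%.

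Without HELENA_RT the summed LINE rows had a ratio close to that of the other transposon rows in sum. The other 31 rows held 517 RPM in Yb ΔHel-C and 1423 RPM in Yb WT, a 2.75-fold lower level (2.59 to 2.92). The 101 transposon rows outside the LINE rows were 2.72-fold lower in sum (2.70 to 2.75). That sum is mostly LTR retrotransposon reads. LTR rows held 15925 of its 17419 RPM in Yb ΔHel-C and 44842 of its 47433 RPM in Yb WT. LINE rows made up 3.59% of transposon reads in Yb ΔHel-C (3.43 to 3.76) and 4.99% in Yb WT (4.88 to 5.10). With HELENA_RT left out of both counts, the shares were 2.88% in Yb ΔHel-C (2.74 to 3.03) and 2.91% in Yb WT (2.83 to 3.00), with overlapping intervals. The lower LINE share in Yb ΔHel-C therefore rested on this row.

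**Figure D2:**
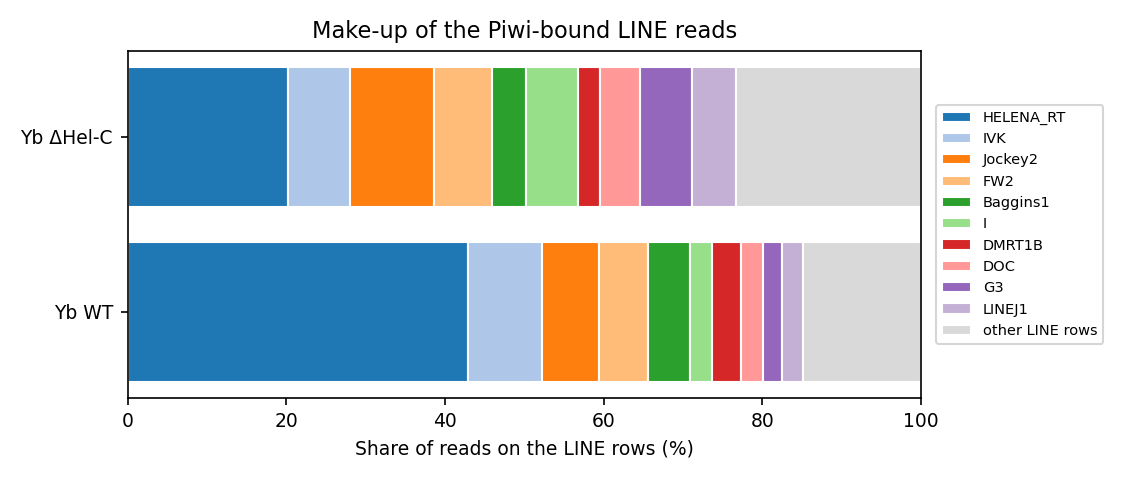
Share of the reads on LINE rows taken by each of the 10 rows with the highest mean RPM and by the other LINE rows together, in percent, for Yb ΔHel-C (upper bar) and Yb WT (lower bar). HELENA_RT takes 20.2% in Yb ΔHel-C and 42.9% in Yb WT, while I and G3 take larger shares in Yb ΔHel-C.

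LINE reads were less concentrated in Yb ΔHel-C, where HELENA_RT held 20.2% of them, against 42.9% in Yb WT. It took 5 rows, HELENA_RT among them, to reach 50% of the LINE reads in Yb ΔHel-C, and 2 rows in Yb WT. This count was not made without HELENA_RT, so it does not show whether the other LINE rows were less concentrated. In Yb ΔHel-C the 5 rows that held most reads were HELENA_RT, Jockey2, IVK, FW2 and I, with 52.5% of the LINE reads. In Yb WT they were HELENA_RT, IVK, Jockey2, FW2 and Baggins1, with 70.8%. The I element took 6.55% of the LINE reads in Yb ΔHel-C (5.45 to 7.78) and 2.78% in Yb WT (2.42 to 3.19), and G3 took 6.49% in Yb ΔHel-C (5.40 to 7.72) and 2.40% in Yb WT (2.07 to 2.78). In RPM both rows were lower in Yb ΔHel-C, I at 42.4 and G3 at 42.1, against 69.4 and 59.9 in Yb WT.

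The Jockey clade, to which most Drosophila LINE families belong, had 23 of the 32 rows. Together they held 478 RPM in Yb ΔHel-C and 1862 RPM in Yb WT, 3.89-fold lower (3.67 to 4.14). Without HELENA_RT the level was 2.29-fold lower (2.12 to 2.47). Of the 20 rows that reached a mean of 1 RPM, 11 were called lower, 1 was called higher and 8 were not called, where 63.3% of all transposon rows were called lower and 2.5% higher. Their median log2 fold was -1.07.

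Jockey2, a relative of the jockey element that gives the clade its name, had 68.8 RPM in Yb ΔHel-C and 179 RPM in Yb WT. That is 2.60-fold lower (2.20 to 3.08), close to the value of the other transposon rows in sum. FW2 had 47.1 RPM in Yb ΔHel-C and 153 RPM in Yb WT, 3.26-fold lower (2.68 to 3.98). The second FW row, FW3, had 5.71 RPM in Yb ΔHel-C and 10.5 RPM in Yb WT, and its interval was the only one among the LINE rows considered that held a ratio of 1 (0.278 to 1.03). LINEJ1 had 36.0 RPM in Yb ΔHel-C and 65.3 RPM in Yb WT, 1.81-fold lower (1.42 to 2.33), and was not called.

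The rows of Doc, a Jockey-clade family with several numbered relatives in the table, lay within a narrow band. DOC had 32.8 RPM in Yb ΔHel-C and 69.4 RPM in Yb WT, 2.11-fold lower (1.65 to 2.73), and was called. DOC2 had 10.3 RPM in Yb ΔHel-C and 17.9 RPM in Yb WT. DOC3 had 14.3 RPM in Yb ΔHel-C and 28.8 RPM in Yb WT. Its ratio of 0.496 is just past 2-fold, but on RPM + 0.5 it is not (log2 fold -0.99), which left it uncalled. DOC4 had 6.42 RPM in Yb ΔHel-C and 16.9 RPM in Yb WT. DOC5 had 24.97 RPM in Yb ΔHel-C and 44.0 RPM in Yb WT. DOC4 was called lower and DOC5 was not. DOC6, with 1 read in Yb ΔHel-C and 2 in Yb WT, was too sparse to be considered. The ratios of the 5 rows considered ran from 1.73-fold lower in DOC2 to 2.64-fold lower in DOC4. None of the 10 pairs had intervals that did not overlap, against 124 of 378 pairs over all LINE rows considered. Overlap also reflects few reads, as in DOC4 with 18 reads in Yb ΔHel-C and 50 in Yb WT. Summed over all 6 rows, Doc stood at 89.2 RPM in Yb ΔHel-C and 178 RPM in Yb WT, 1.99-fold lower (1.71 to 2.33).

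The G rows, by contrast, spread widely. G itself had 4.28 RPM (12 reads) in Yb ΔHel-C and 26.1 RPM (77 reads) in Yb WT and was 6.09-fold lower (3.29 to 12.3). G3 had 42.1 RPM in Yb ΔHel-C and 59.9 RPM in Yb WT and was 1.42-fold lower (1.12 to 1.81), the smallest difference among LINE rows averaging at least 10 RPM. The intervals of G and G3 lay far apart.

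G5 and G5A also separated despite their names. G5 had 6.06 RPM in Yb ΔHel-C and 25.04 RPM in Yb WT, a ratio of 0.242 (0.134 to 0.414). G5A had 15.7 RPM in Yb ΔHel-C and 24.4 RPM in Yb WT, a ratio of 0.644 (0.432 to 0.9503). The intervals did not overlap. The sources used here do not say how reads that fit several elements were shared between such rows, so related rows are not fully separate measurements.

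G4 had 12.1 RPM in Yb ΔHel-C and 21.7 RPM in Yb WT. G6 had 1.07 RPM (3 reads) in Yb ΔHel-C and 7.11 RPM (21 reads) in Yb WT. Its ratio of 0.151 has a wide interval (0.0288 to 0.504). G7 had 0 reads in Yb ΔHel-C and 3 in Yb WT, so no fold is given. Of the 21 pairs among the 7 G rows considered, 12 had intervals that did not overlap, against 124 of 378 pairs over all LINE rows considered. Both counts include G2, which had only 10 reads in Yb ΔHel-C and 2 in Yb WT. Its interval lay above that of every other LINE row considered. Every pair of G2 with another G row is therefore among the 12, and much of the G spread rests on this sparse row. Pairs over all transposon rows were not counted, for G, Doc or the R1 clade.

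G2 was the single LINE row higher in Yb ΔHel-C. It had 3.57 RPM (10 reads) in Yb ΔHel-C and 0.677 RPM (2 reads) in Yb WT. The ratio was 5.27 (1.12 to 49.5). With so few reads the row was no longer called at a pseudocount of 5 RPM, and the row leaves the set when at least 1 RPM is asked of both columns.

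The BS rows had few reads. BS2 had 9.99 RPM in Yb ΔHel-C and 21.7 RPM in Yb WT. BS had 2.85 RPM in Yb ΔHel-C and 10.5 RPM in Yb WT. BS3 had 2.14 RPM in Yb ΔHel-C and 8.12 RPM in Yb WT. All 3 were called lower, from 2.17-fold in BS2 to 3.79-fold in BS3, with overlapping intervals. BS4 had 0 reads in Yb ΔHel-C and 3 in Yb WT.

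**Figure D3:**
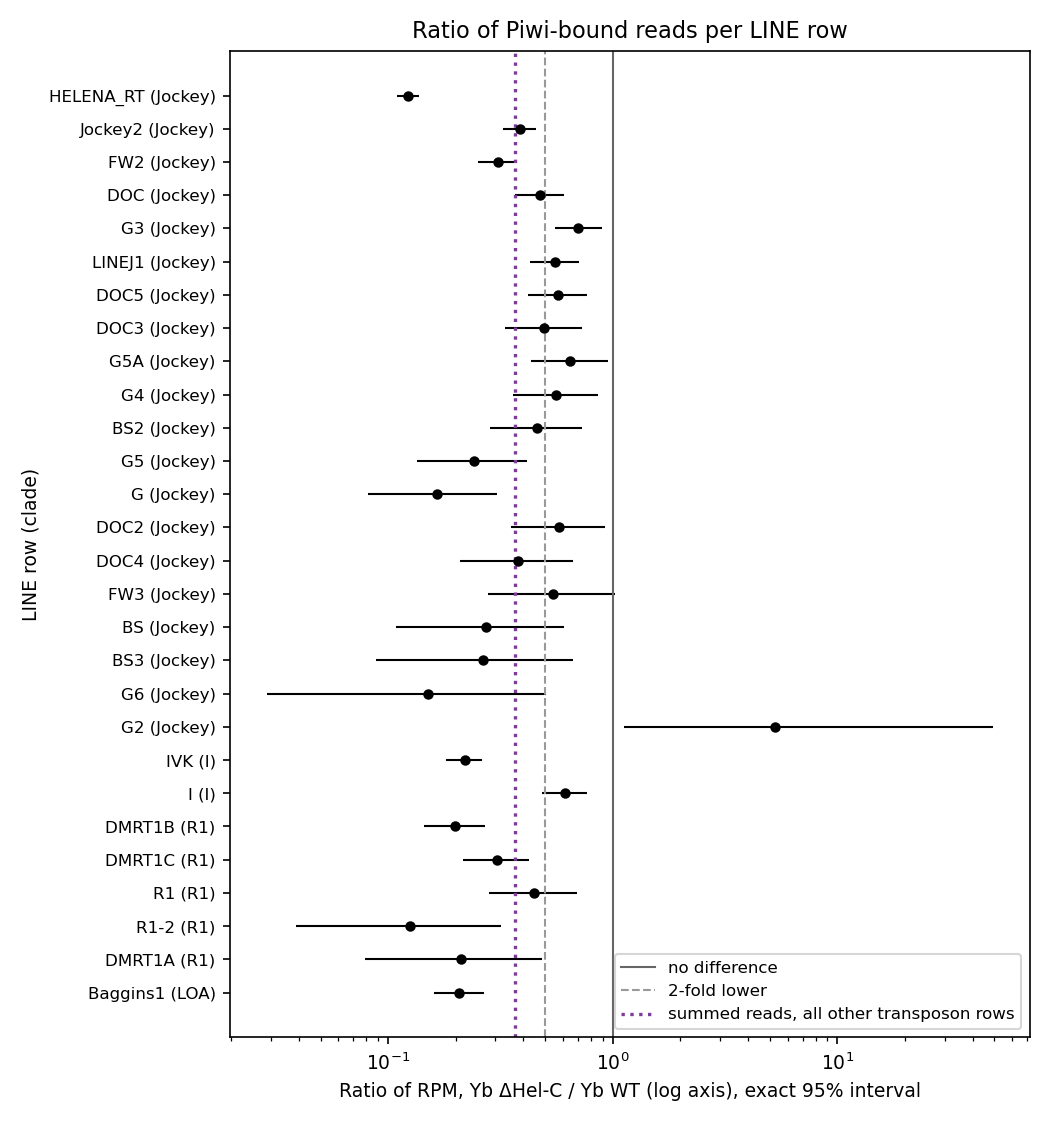
Ratio of RPM in Yb ΔHel-C over Yb WT on a log axis for the 28 LINE rows averaging at least 1 RPM, with exact 95% intervals for counting error. The solid line marks no difference, the dashed line 2-fold lower and the dotted line the summed reads of all other transposon rows (ratio 0.367); 6 rows lie wholly left of the dotted line and 6 wholly right of it.

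The I clade showed a clear gap between its members. The I element, the agent of I-R hybrid dysgenesis in the germline, had 42.4 RPM (119 reads) in Yb ΔHel-C and 69.4 RPM (205 reads) in Yb WT. It was 1.63-fold lower (1.30 to 2.07) and was not called. IVK, the other row assigned to this clade, had 50.7 RPM (142 reads) in Yb ΔHel-C and 231 RPM (684 reads) in Yb WT and was 4.57-fold lower (3.81 to 5.51). The intervals of the ratios did not overlap.

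All 5 rows of the R1 clade were called lower, where 63.3% of all transposon rows were, and their median log2 fold was -2.04. They had a summed level of 49.9 RPM in Yb ΔHel-C and 197 RPM in Yb WT, 3.94-fold lower (3.27 to 4.77). R1 elements insert at a fixed site in the large ribosomal RNA genes. The R1 row had 10.7 RPM in Yb ΔHel-C and 24.0 RPM in Yb WT. R1-2 had 1.78 RPM (5 reads) in Yb ΔHel-C and 14.2 RPM (42 reads) in Yb WT, and its ratio of 0.125 (0.0388 to 0.317) overlapped that of R1 (0.281 to 0.692). The DMRT1 rows, assigned to the same clade, were all lower too. DMRT1B, with 18.2 RPM in Yb ΔHel-C and 91.4 RPM in Yb WT, was 5.02-fold lower (3.71 to 6.91). DMRT1C had 16.8 RPM in Yb ΔHel-C and 55.2 RPM in Yb WT. DMRT1A had 2.50 RPM in Yb ΔHel-C and 11.8 RPM in Yb WT. The 3 DMRT1 rows lay between 3.29-fold and 5.02-fold lower with overlapping intervals. In the clade 1 of the 10 pairs, R1 and DMRT1B, had intervals that did not overlap, against 124 of 378 pairs over all LINE rows considered.

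Baggins1 was the single row of the LOA clade. It had 27.5 RPM (77 reads) in Yb ΔHel-C and 132 RPM (391 reads) in Yb WT and was 4.82-fold lower (3.76 to 6.23). R2, which like R1 inserts in the ribosomal RNA genes, is listed at 0 in both columns. The same holds for 110 of 111 histone rows and all 13 rows of mitochondrial mRNAs, so a 0 may stand for reads that were not counted.

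The LINE rows were also set against the sum of all other transposon rows, whose ratio was 0.367. Most reads in that sum are of LTR rows, and the median log2 fold of the other rows considered was -1.19. The whole interval lay below that value for 6 rows, HELENA_RT, IVK, Baggins1, DMRT1B, G and R1-2. For another 6, I, G3, LINEJ1, DOC5, G5A and G2, it lay above, and for 16 rows the interval held it. Of all 120 transposon rows considered, 14.2% lay wholly below that value and 30% wholly above it. Relative to the other transposon reads the median log2 fold of the LINE rows was 0.06, with 4 rows called lower and 1 higher (6.67% and 9.17% of all transposon rows), beside 18 lower and 1 higher on the authors' totals. The row called higher was G2 on both scales. The 2-fold lower rows on that scale were HELENA_RT (log2 fold -1.58), R1-2 (-1.40), G (-1.11) and G6 (-1.08).

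Set beside other classes, the median of the LINE rows lay near that of the LTR retrotransposons. The 64 LTR rows considered had a median log2 fold of -1.32 and were 2.82-fold lower in sum (2.79 to 2.85), with 48 called lower and 0 higher. The 20 DNA transposon rows considered had a median of -0.90 and were 1.75-fold lower in sum (1.67 to 1.84), with 8 called lower and 1 higher. The telomeric LINEs HETA, TAHRE, TART-A and TART_B1 together were 1.39-fold lower (1.29 to 1.497), with 0 called lower and 1, TART-A, higher. TART_B1 held 317 of their 406 RPM in Yb ΔHel-C and 512 of their 563 RPM in Yb WT. The intervals of HETA (0.654 to 1.70) and TAHRE (0.379 to 1.90) held a ratio of 1. Their median log2 fold over the 4 rows was -0.065. DMCR1A, the LINE row outside the name list, had 161 RPM in Yb ΔHel-C and 403 RPM in Yb WT and was 2.51-fold lower (2.25 to 2.81). No test of a difference between classes was made.

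**Figure D4:**
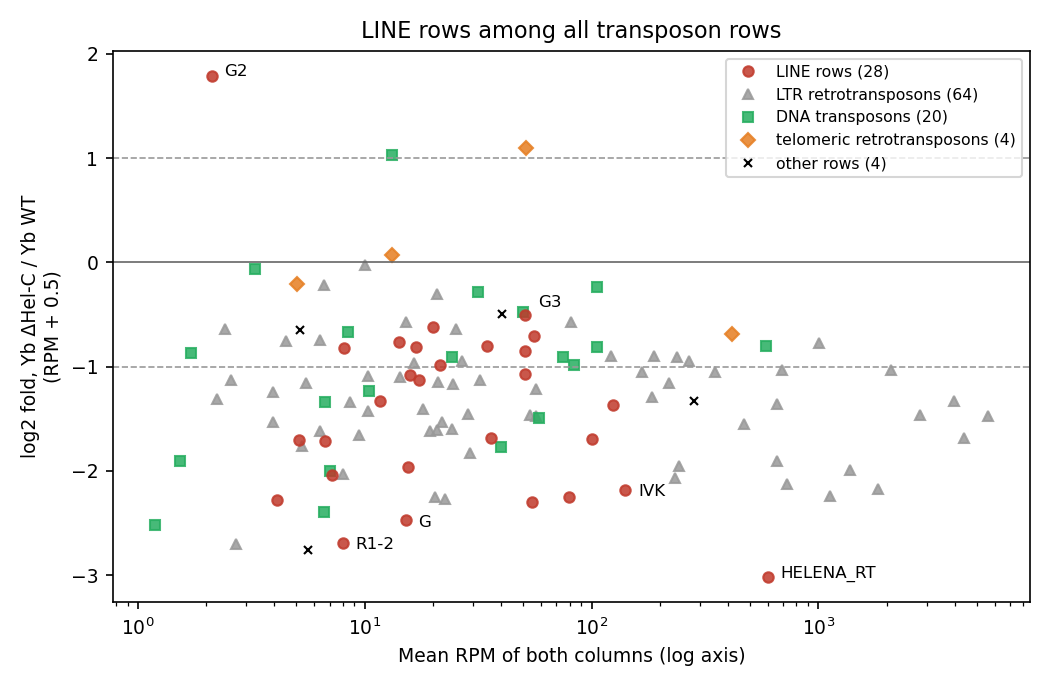
log2 fold of RPM + 0.5, Yb ΔHel-C over Yb WT, against mean RPM on a log axis for the 120 transposon rows averaging at least 1 RPM, by class. Most LINE rows (circles) lie among the LTR rows (triangles), with HELENA_RT lowest (log2 fold -3.02) and G2 highest (1.79).

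The size of the LINE difference depended on the scale. Summed gene rows were higher in Yb ΔHel-C on the authors' totals, with a median log2 fold over genes of 0.89. TMM and RLE factors of edgeR, which take most rows as unchanged and so bring the gene median to 0.10 and 0.054, put the summed LINE reads 6.89-fold and 7.13-fold lower. With either of them 27 of the 28 LINE rows were called lower, where 93.3% (TMM) and 95% (RLE) of all transposon rows were. On the gene reads alone the LINE sum was 4.72-fold lower and 24 rows were called lower (80.8% of all transposon rows). On the reads of the other transposons it was 1.41-fold lower and 4 rows were called lower. The 1 row called higher was G2 under each of these 4 scalings, where 0.833% of all transposon rows were called higher with TMM, with RLE and on gene reads. HELENA_RT stayed more than 2-fold lower under each of them as well.

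**Figure D5:**
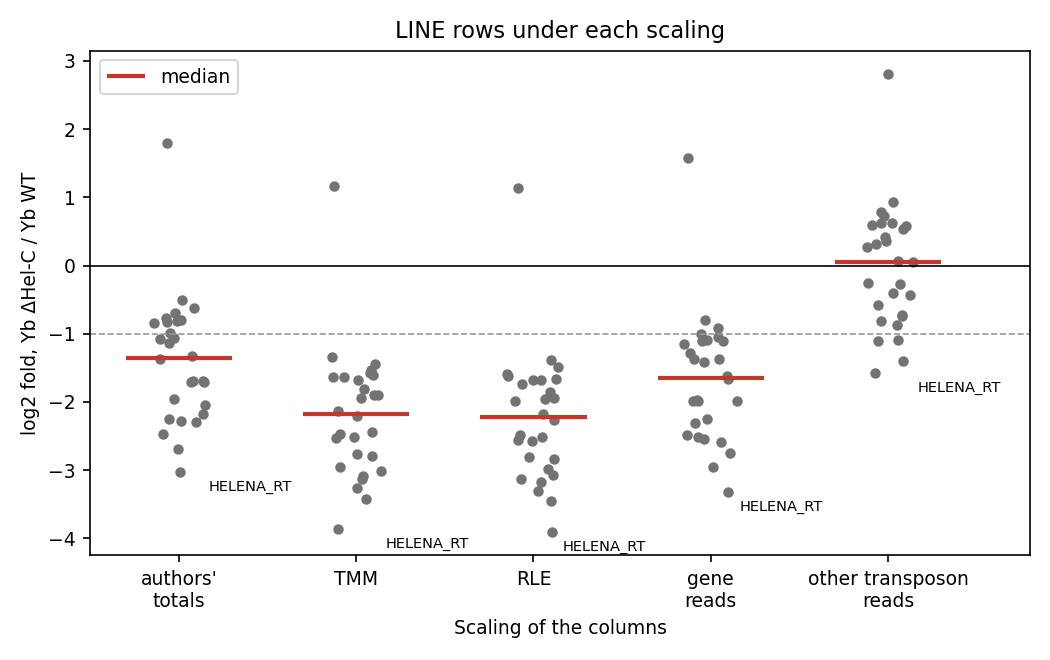
log2 fold, Yb ΔHel-C over Yb WT, of the 28 LINE rows (points, with the median as a bar) under 5 scalings of the columns. The median is -1.35 on the authors' totals, -2.17 with TMM, -2.22 with RLE, -1.64 on gene reads and 0.06 on the reads of the other transposons.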

How the data were processed

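Small RNA libraries of Flag-purified Piwi were made by the authors from OSC, per the labels' protocols. The deposited table holds RPM values by the authors, in 1 column per group. The unit was judged from the values. The submitters' processing notes name the tools STAR and HTSeq, and as builds BDGP6 and dm6, without saying what each was used for. The sources used here give neither the strand setting, nor the rule for reads that fit several elements, the transposon sequences or any pooling of libraries. Of the nonzero values, 100% were multiples of a single step (tolerance 0.01 read), 0.357 RPM for Yb ΔHel-C and 0.338 RPM for Yb WT, so whole reads were recovered. The table has 0 columns of other series.

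Ratios have exact conditional Clopper-Pearson 95% intervals (SciPy 1.17.1), and shares exact binomial ones. log2 folds used RPM + 0.5, which understates changes of rows with few reads. The exact test used a Benjamini-Hochberg adjusted p of 0.05 over the 120 transposon rows. edgeR 4.0.16 gave the TMM and RLE factors. The interval and test were tried only on simulated Poisson counts, the model they assume. That trial cannot show how well they hold for these data. Every LINE row is given with both columns. Ratios were set for the 10 rows with the highest mean, the 3 lowest and 3 highest folds at a mean of at least 10 RPM, and rows called higher, and other ratios were chosen after their values were seen. Clades and classes were assigned by hand. The members and lists were chosen with earlier results of these data known.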

Additional observations from a re-analysis of the deposited data

How the results depend on the processing

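No paired analysis was possible because the table has 1 column per group with no replicate number, and for the same reason no replicate could be left out. The ratio of summed LINE reads (0.260) was 0.145 with TMM factors, 0.140 with RLE factors, 0.212 on gene reads, 0.709 on other transposon reads, 0.364 without HELENA_RT and 0.280 with DMCR1A, an alternative added after the data were seen. The median log2 fold (-1.35) was -2.17 with TMM, -2.22 with RLE, -1.64 on gene reads, 0.056 on other transposon reads, -0.96 with a pseudocount of 5 RPM, -1.13 over rows averaging at least 10 RPM and -1.50 with rows of a family summed (12 families). The count of LINE rows called lower (18 of 28) was 4 on other transposon reads (6.67% of all transposon rows). It was 11 with a pseudocount of 5 RPM, and 11 where the whole interval had to be past 2-fold (34.2% of all transposon rows). Otherwise it lay between 13 and 27. The filters changed the set: 13 of 21 rows averaging at least 10 RPM, 18 of 27 with at least 1 RPM in both columns, and 20 of 31 with no filter. No share over all transposon rows is given for the pseudocounts and filters. The count called higher (1, G2) was 0 with a pseudocount of 5 RPM, with a mean of at least 10 RPM, with at least 1 RPM in both columns, and where the whole interval had to be past 2-fold. The LINE share of transposon reads without HELENA_RT was 2.88% in Yb ΔHel-C and 2.91% in Yb WT. On other transposon reads 13 of the 28 LINE rows had a log2 fold below 0, beside 27 on the authors' totals. Of the rows called lower, 5 changed sign there. Their log2 folds were 0.066 for Jockey2, 0.36 for DOC, 0.27 for R1, 0.32 for BS2 and 0.045 for DOC4. These turns follow from the construction of that scale, which sets the other transposon reads equal in both columns. Depth limits the sparse rows: 5 of the 32 LINE rows had fewer than 20 reads over both columns, and 15 had more than 100.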

Other observations

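The order of the LINE rows by RPM was largely kept between the columns. Across the 28 LINE rows considered, Spearman's correlation of RPM in Yb ΔHel-C with RPM in Yb WT was 0.93, and across the 120 transposon rows it was 0.95. The points share the depths of the 2 columns and the lengths of the elements, and rows are not independent replicates. The log2 fold showed little relation to the mean RPM of a row, with a Spearman's correlation of -0.051 over the 28 LINE rows and -0.28 over the 21 with a mean of at least 10 RPM.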
